A study of Mus musculus with 899 samples.

Results

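The miR-183, miR-96 and miR-182 cluster was followed in mouse plasma through its mature 5p strands, mmu-miR-183-5p, mmu-miR-96-5p and mmu-miR-182-5p. These 3 miRNA were taken by name from the 1915 mature miRNA of the read count table, and all 3 were among the 483 that passed the filter on low counts. The study sequenced plasma miRNA of C3H and C57Bl/6 mice of both sexes whose whole thorax was irradiated or sham treated, to look for early signs in the circulation of late injury to lung and heart. There were 899 samples, drawn repeatedly from C3H mice (64 irradiated, 32 sham) and C57Bl/6 mice (68 irradiated, 32 sham). Mice were bled before irradiation (PT), at day 2 or day 5 (D2, D5) and then each month (M1 and on), until M4 in C3H and M6 in C57Bl/6 mice. Samples at PT are named here by the treatment that the mouse received later. The labels give no introduced allele in either strain, and the dose was set for each strain. Live mice were bled behind the eye and terminal blood was taken from the heart, and the labels do not say which samples were terminal.

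In mammals the members of this cluster are cut from a single primary transcript. They are known for their high levels in sensory cells of the retina and inner ear, where mutations of the miR-96 seed cause hearing loss, and they are also made in other epithelia. A miRNA pairs with messenger RNA mainly through its seed, bases 2 to 8 counted from the 5′ end, and lowers the stability and translation of the paired RNA. Plasma holds miRNA released from many tissues, so more releasing cells and more release per cell cannot be told apart in these data.

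The mature sequences show how closely the members are related. They are printed 5′ to 3′ from RefSeq (GRCm38.p6), with the seed in capitals.
mmu-miR-183-5p: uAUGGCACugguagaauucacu
mmu-miR-96-5p: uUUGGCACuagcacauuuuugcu
mmu-miR-182-5p: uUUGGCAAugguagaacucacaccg
The seeds of miR-183-5p and miR-96-5p were identical at 6 of 7 bases and differed by A2U, with positions counted from the 5′ end and the base of miR-183-5p first. Those of miR-96-5p and miR-182-5p also matched at 6 of 7 bases and differed by C8A. The first 7 bases of miR-96-5p and miR-182-5p were the same. Over the whole mature sequence, seed included, miR-182-5p was closer to miR-183-5p, with 18 of 22 compared positions identical, than to miR-96-5p, with 12 of 23, and miR-183-5p and miR-96-5p matched at 13 of 22. No other miRNA of the table with a RefSeq sequence (1623 of 1915) had a seed of bases 2 to 8 equal to that of a member. Reads of all 3 can therefore be told apart by sequence, although how the counting treated mismatches is not stated in the sources used here.

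The genes lie on the minus strand of chromosome 6 in GRCm38 within 3820 bases. Mir183 (30169668 to 30169737) is 116 bases from Mir96 (30169446 to 30169551), and Mir182 (30165918 to 30165992) lies a further 3453 bases downstream. None of them overlaps another annotated gene. The nearest annotated neighbours are the protein-coding gene Nrf1, which ends 12459 bases beyond Mir182, and the lincRNA Rncr4, which starts 3155 bases beyond Mir183 on the opposite strand.

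Libraries held 206490 to 11814515 reads (median 1475030), and 721 samples had at least 1000000. Normalization factors ran from 0.372 to 1.59, with 6 samples under 0.5, and no 2 samples had identical counts. Each strain carried 2 label codes, G1 and G3 in C57Bl/6 and G2 and G4 in C3H mice, and only mice coded G1 or G2 were sampled beyond M1. The meaning of these codes is not given in the labels. Differences were tested by quasi-likelihood in edgeR, with p adjusted by Benjamini-Hochberg over the 483 miRNA, and a member was called at an adjusted p under 0.05. Levels are log2 CPM (counts per 1000000 of the normalized library, prior count 2), as mean ± SD over mice.

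The most abundant member was miR-183-5p, which ranked 52 of 483 by mean CPM, followed by miR-182-5p at 109 and miR-96-5p at 222. In the median sample miR-183-5p made up 87.9% of the reads of the cluster, miR-182-5p 11.4% and miR-96-5p 0.543%. These are shares of reads, and how evenly the library kit captured the 3 sequences was not tested. Median counts per sample were 2100 for miR-183-5p, 264 for miR-182-5p and 12 for miR-96-5p. Both abundant members had reads in every sample, down to 209 and 8 reads, whereas miR-96-5p was at 0 in 65 of 899 samples (7.23%). The counts of miR-96-5p therefore set the precision of its values. It was at 0 in 17.4% of samples under 1000000 reads and in 4.72% of those above. A count of 0 allows up to 3 reads, which is 0.832 CPM in the deepest and 14.5 CPM in the shallowest of these 65 samples, counting error only.

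The strands opposite to the 5p strands were nearly absent. The passenger strands are printed in the same way to show that they share no seed with the 5p strands.
mmu-miR-183-3p: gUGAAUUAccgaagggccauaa
mmu-miR-96-3p: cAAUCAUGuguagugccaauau
mmu-miR-182-3p: gUGGUUCUagacuugccaacu
Over all 899 samples miR-183-3p had 327 reads in 108 samples, against 2877912 reads of miR-183-5p, a ratio of 8801 to 1. For miR-182-3p there were 153 reads in 65 samples, against 397572 of the 5p strand, a ratio of 2599 to 1. The strands of miR-96 were less unequal, with 296 reads of miR-96-3p in 96 samples and a ratio of 86.7 to 1. No 3p strand of the cluster was among the miRNA tested, so changes are given for the 5p strands only.

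The level of miR-183-5p stayed within a narrow band of group means, between 9.86 and 11.37 log2 CPM. In sham C3H mice it was 10.27 ± 0.81 at PT, 9.89 ± 0.80 at D2, 9.86 ± 0.61 at D5, 10.29 ± 1.05 at M1, 10.79 ± 1.02 at M2, 11.13 ± 0.61 at M3 and 10.77 ± 1.13 at M4, with 32 mice at PT and M1 and 16 at the other time points. In irradiated C3H mice it was 10.54 ± 1.07 at PT, 9.99 ± 0.64 at D2, 10.13 ± 0.77 at D5, 10.12 ± 0.96 at M1, 10.35 ± 0.61 at M2, 10.81 ± 0.66 at M3 and 10.57 ± 0.83 at M4, with 64, 32, 32, 58, 28, 27 and 17 mice. The C3H means were lowest at D5 in sham and at D2 in irradiated mice, and highest at M3 in both. In sham C57Bl/6 mice it was 10.10 ± 0.51 at PT, 10.74 ± 0.90 at D2, 11.37 ± 1.42 at D5, 10.51 ± 0.74 at M1, 10.58 ± 1.14 at M2, 11.22 ± 0.79 at M3, 11.37 ± 0.90 at M4, 10.76 ± 0.96 at M5 and 10.86 ± 0.97 at M6, again with 32 mice at PT and M1 and 16 otherwise. In irradiated C57Bl/6 mice it was 10.27 ± 0.84 at PT, 11.08 ± 0.85 at D2, 11.28 ± 0.98 at D5, 10.38 ± 0.71 at M1, 10.16 ± 1.02 at M2, 10.86 ± 0.91 at M3, 11.18 ± 0.89 at M4, 10.62 ± 0.69 at M5 and 10.71 ± 0.45 at M6, with 64, 32, 32, 68, 36, 31, 29, 21 and 8 mice. In this strain the means at all later time points were above PT in both treatments, except at M2 in irradiated mice.

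The scarce member miR-96-5p had the widest span of group means, from 1.67 to 4.77 log2 CPM. In sham C3H mice its level was 2.76 ± 1.15 at PT, 3.76 ± 1.52 at D2, 3.39 ± 0.48 at D5, 3.35 ± 1.55 at M1, 3.86 ± 1.23 at M2, 4.18 ± 0.91 at M3 and 4.77 ± 1.58 at M4, and in irradiated C3H mice it was 2.85 ± 1.34 at PT, 3.47 ± 0.80 at D2, 3.14 ± 1.10 at D5, 3.23 ± 1.2 at M1, 3.37 ± 1.07 at M2, 3.37 ± 1.10 at M3 and 4.36 ± 0.59 at M4, with the numbers of mice as above. In sham C57Bl/6 mice it was 2.36 ± 1.21 at PT, 2.93 ± 1.11 at D2, 3.19 ± 1.00 at D5, 3.19 ± 1.33 at M1, 4.03 ± 1.69 at M2, 4.62 ± 1.24 at M3, 4.21 ± 1.23 at M4, 4.01 ± 1.65 at M5 and 4.38 ± 1.30 at M6, and in irradiated C57Bl/6 mice it was 2.2 ± 1.28 at PT, 1.67 ± 1.36 at D2, 2.84 ± 1.65 at D5, 2.85 ± 1.07 at M1, 3.35 ± 1.39 at M2, 3.79 ± 1.27 at M3, 3.58 ± 1.47 at M4, 3.76 ± 0.88 at M5 and 4.13 ± 0.71 at M6. After PT, the mean log2 CPM of irradiated mice lay under that of sham mice at all 6 time points in C3H and all 8 in C57Bl/6 mice, while the fitted log2 fold change was above 0 at D5 in both strains, 0.04 (SE 0.42, adjusted p = 1 by edgeR) in C3H and 0.27 (SE 0.45, adjusted p = 0.778) in C57Bl/6 mice.

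The means of miR-182-5p ran from 6.78 to 8.56 log2 CPM. In sham C3H mice its level was 6.95 ± 0.77 at PT, 7.92 ± 0.80 at D2, 7.65 ± 0.69 at D5, 7.69 ± 1.19 at M1, 7.74 ± 0.94 at M2, 7.75 ± 0.94 at M3 and 8.56 ± 1.07 at M4, and in irradiated C3H mice it was 6.85 ± 0.84 at PT, 7.93 ± 0.69 at D2, 7.70 ± 0.61 at D5, 7.46 ± 0.91 at M1, 7.32 ± 0.55 at M2, 7.21 ± 0.88 at M3 and 8.14 ± 0.76 at M4. In sham C57Bl/6 mice it was 7.01 ± 0.88 at PT, 6.78 ± 0.82 at D2, 6.90 ± 0.84 at D5, 7.63 ± 0.86 at M1, 7.86 ± 0.99 at M2, 8.33 ± 0.98 at M3, 8.08 ± 0.75 at M4, 7.72 ± 0.87 at M5 and 8.41 ± 0.92 at M6, and in irradiated C57Bl/6 mice it was 6.84 ± 0.79 at PT, 7.44 ± 0.80 at D2, 7.64 ± 0.61 at D5, 7.45 ± 0.60 at M1, 7.52 ± 0.99 at M2, 7.99 ± 0.89 at M3, 7.93 ± 0.81 at M4, 7.83 ± 0.91 at M5 and 8.56 ± 0.33 at M6. The lowest group was sham C57Bl/6 at D2 and the highest sham C3H at M4. When the 32 groups were put in order of their mean, all 31 neighbouring pairs differed by less than the larger SD of the pair, for each of the 3 members. The largest step between neighbours was 0.21 for miR-183-5p, 0.53 for miR-96-5p and 0.20 for miR-182-5p, on the log2 scale. Sorting so many means over a short span makes small steps near certain, so these steps do not show the groups to be alike. For each member the lowest and highest groups lay further apart than the SD of either.

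**Figure D1:**
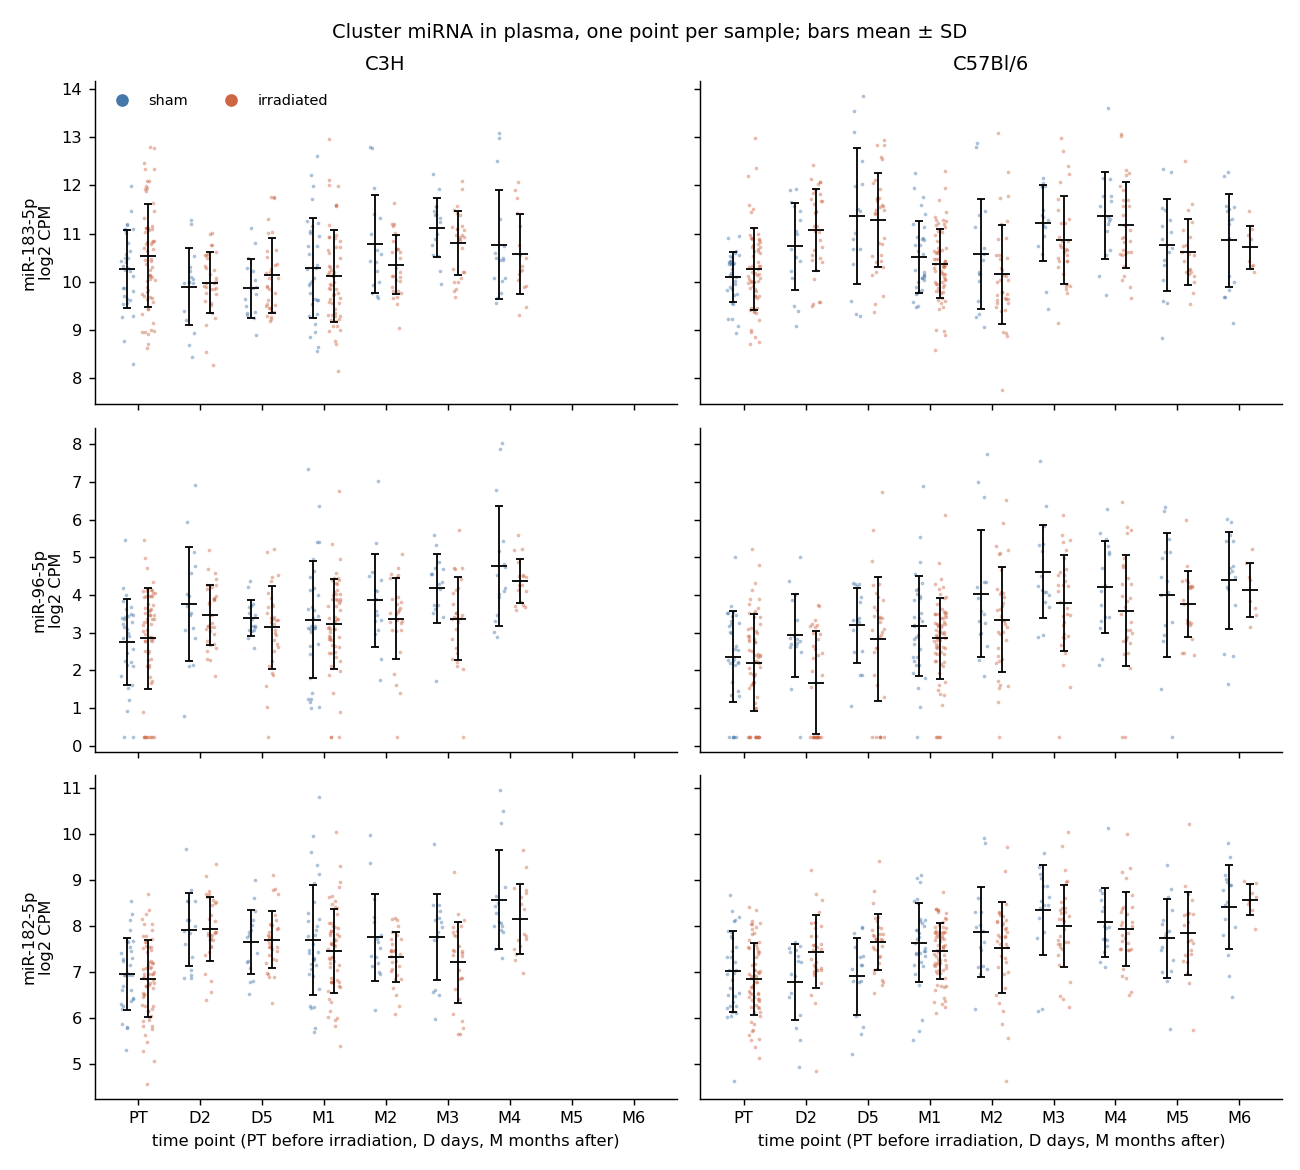
Log2 CPM of the cluster miRNA (rows) by time point in C3H (left) and C57Bl/6 (right) mice, with sham samples in blue and irradiated samples in orange, 1 point per sample and black bars for mean ± SD. The spread within groups was wide, and samples of miR-96-5p without reads form the line of points at the bottom of its panels.

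Before irradiation, 0 of 6 tests of a member between mice assigned to either treatment passed (0% of all miRNA passed in C3H and 0% in C57Bl/6 mice), although 1 of the 6, miR-183-5p in C3H mice, had an unadjusted p under 0.05 (log2 fold change 0.46, SE 0.20, adjusted p = 0.695 by edgeR). After irradiation, 1 of 42 tests of a member at a single strain and time point was called, and 15 had an unadjusted p under 0.05. In C3H mice 0 of 18 tests were called, 9 of them with an unadjusted p under 0.05, while the share of all 483 miRNA called was 4.97% at D2, 3.11% at D5, 3.31% at M1, 0.621% at M2, 2.07% at M3 and 0.414% at M4. Of 24 tests in C57Bl/6 mice, 1 was called, 6 of them with an unadjusted p under 0.05, against shares of 6.63% at D2, 14.1% at D5, 3.73% at M1, 3.31% at M2, 1.66% at M3, 4.76% at M4, 3.52% at M5 and 0.414% at M6.

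The call was that of miR-96-5p in C57Bl/6 mice at M2. Irradiated mice had 0 to 91.2 CPM with a median of 8.83 (n = 36), and sham mice 2.42 to 210.7 CPM with a median of 10.5 (n = 16). The ranges overlapped from 2.42 to 91.2 CPM, and the highest sham samples lay above this stretch. The log2 fold change was -1.24 (SE 0.38, adjusted p = 0.0353 by edgeR). A single sham mouse, number 1039, held 37.3% of the CPM summed over its group, and without it the log2 fold change was -0.67 (adjusted p = 0.541 by edgeR). The call was also lost without sham mouse 1015 (-0.97, adjusted p = 0.259 by edgeR) or 1013 (-1.07, adjusted p = 0.162), and it was made without each of the other 13 of the 16, with values from -1.36 to -0.67 over all 16. The same contrast in limma-voom gave -0.77 (adjusted p = 0.411). The value was under 0 in all 14 alternative analyses, limma-voom among them, and 7 of the 14 made the call. The call was not made when the 4 mice without a PT sample, all of them irradiated C57Bl/6 mice, were left out.

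At D2 in C57Bl/6 mice, miR-96-5p was at 0 in 14 of 32 irradiated samples (43.8%) and in 1 of 16 sham samples (6.25%), and the medians were 2.63 and 5.78 CPM. The median total was 859418 reads in the irradiated and 1300997 in the sham samples, and the part of this difference in the count of zeros was not tested. The log2 fold change was -1.22 (SE 0.45), which did not pass (adjusted p = 0.0709 by edgeR), and it was -2.02 (adjusted p = 0.0405 by edgeR) in mice coded G1 and -0.14 (adjusted p = 0.923) in those coded G3. In C3H mice the value at D2 was -0.93 (SE 0.39, adjusted p = 0.169 by edgeR), with medians of 9.14 CPM in irradiated and 11.1 CPM in sham mice and a range of the sham mice, 0.538 to 119.6 CPM, that enclosed that of the irradiated mice.

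The second abundant member, miR-182-5p, had values of the opposite sign in C57Bl/6 mice in the first days. At D2 irradiated mice had 27.7 to 588 CPM (median 178) and sham mice 29.5 to 199 CPM (median 135). At D5 they had 92.3 to 673 CPM (median 209) and 35.8 to 250.0 CPM (median 137). The highest irradiated samples were above every sham sample on both days, and the lower parts of the ranges overlapped. The log2 fold change was 0.67 (SE 0.26, adjusted p = 0.0952 by edgeR) at D2 and 0.67 (SE 0.26, adjusted p = 0.0691) at D5, both short of the threshold. The direction was the same in all 15 alternative analyses on either day, of which 3 passed at D2 and 4 at D5. Against its own PT sample, miR-182-5p was higher at D5 in 32 of 32 irradiated and in 8 of 16 sham C57Bl/6 mice, with mean changes of 1.28 ± 0.94 (SD, n = 32) and 0.09 ± 0.92 (SD, n = 16) on the log2 scale. At D2 the numbers were 18 of 32 and 5 of 16, with mean changes of 0.12 ± 1.01 (SD, n = 32) and -0.43 ± 1.24 (SD, n = 16), so that the sham mean lay below PT and the irradiated mean near it. Levels at D5 averaged 7.64 ± 0.61 (SD, n = 32) log2 CPM after irradiation and 6.90 ± 0.84 (SD, n = 16) after sham treatment. These levels lay closer together than the mean changes at D5 did. The irradiated mice bled at D5 therefore had a lower mean at PT than the sham mice bled at D5. The difference in change at D5 includes this gap at PT, and its part in the 32 of 32 was not tested. Fitted for D5 as a change from the own PT sample, with each mouse as its own block (limma-voom), the difference was 0.97 (adjusted p = 0.0659). By label code it was 0.42 (adjusted p = 0.551 by edgeR) in mice coded G1 and 1.01 (adjusted p = 0.0255) in those coded G3.

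In C3H mice the log2 fold changes of miR-182-5p were -0.05 (SE 0.25) at D2 and 0.02 (SE 0.25) at D5. Later they were -0.49 (SE 0.18) at M1, -0.68 (SE 0.26) at M2, -0.59 (SE 0.26) at M3 and -0.69 (SE 0.29) at M4, none of which passed (adjusted p between 0.104 and 0.366 by edgeR). Over these 4 months miR-96-5p had -0.60, -0.86, -0.71 and -1.32, and miR-183-5p -0.19, -0.70, -0.30 and -0.47. At M4 the medians of miR-96-5p were 18.1 CPM in irradiated and 19.4 CPM in sham mice. Sham mouse 2028 held 30.7% of the CPM of miR-96-5p summed over its group. Without this mouse the M4 values were -0.88 for miR-96-5p (adjusted p = 0.941 by edgeR), -0.40 for miR-182-5p and -0.21 for miR-183-5p. All 3 members were on the same side of sham at each of these months, without a call, but at M1 miR-96-5p and miR-183-5p were on the other side in codes G3 or G4 (0.0324 and 0.193), as was miR-183-5p in females (0.0778). They were counted in the same samples, so their values are not independent of each other. From M1 to M4 the C57Bl/6 values were -0.69, -1.24, -0.99 and -0.42 for miR-96-5p, -0.28, -0.42, -0.31 and -0.14 for miR-182-5p and -0.16, -0.49, -0.22 and -0.21 for miR-183-5p. At M4 all 3 were above 0 in females alone (0.207, 0.203 and 0.481), and miR-182-5p also against the own PT sample (0.116). At M1 miR-96-5p was above 0 in males (0.105) and miR-183-5p in codes G1 or G2 (0.042).

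The most abundant member, miR-183-5p, passed at none of the 14 strain and time point combinations after irradiation (0 calls by edgeR, 1 unadjusted p under 0.05), with log2 fold changes from -0.70 to 0.37 in C3H and from -0.49 to 0.32 in C57Bl/6 mice. At D5 in C57Bl/6 mice its value was -0.43 (SE 0.27, adjusted p = 0.31 by edgeR) over all mice and -1.62 (adjusted p = 0.000179) in mice coded G3 alone. There 8 sham mice had a mean of 11.32 ± 1.95 (SD, n = 8) log2 CPM, up to 14896 CPM, against 10.68 ± 0.93 (SD, n = 16) in irradiated mice. A fit without the highest of these sham mice was not run. In mice coded G1 the order was turned, with 11.41 ± 0.70 (SD, n = 8) in sham and 11.88 ± 0.58 (SD, n = 16) in irradiated mice.

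**Figure D2:**
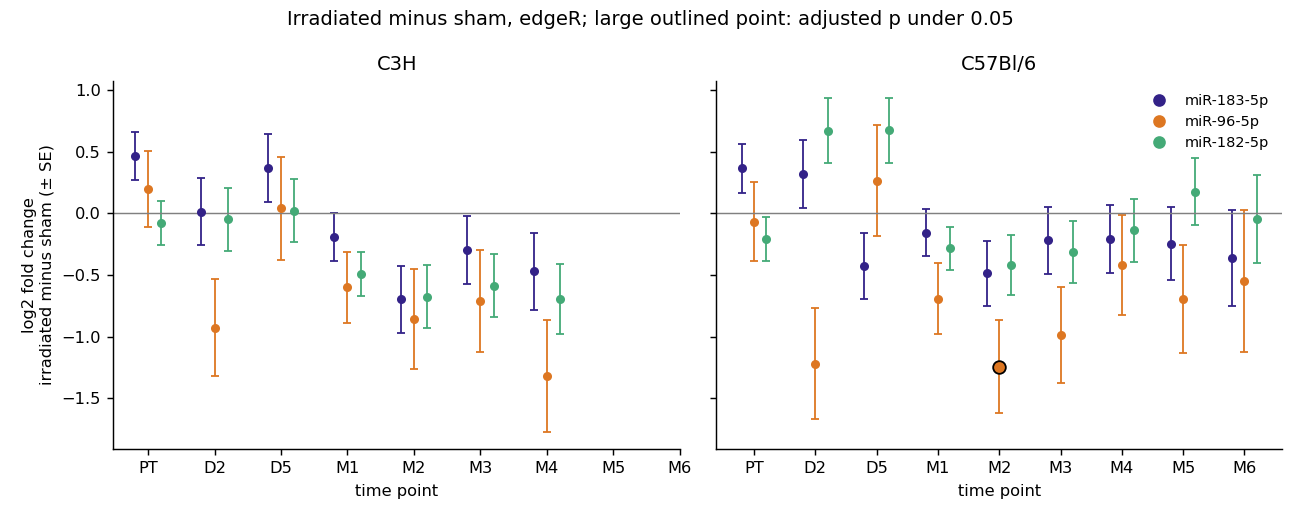
Log2 fold change of irradiated minus sham mice (± SE, edgeR) for each member by time point in C3H (left) and C57Bl/6 (right) mice. Only miR-96-5p at M2 in C57Bl/6 mice (-1.24, large outlined point) was called, and from M1 to M4 the values of all 3 members lie under 0 in both strains, although at M1 and M4 some signs turned in single codes or sexes and that of miR-182-5p at M4 in C57Bl/6 mice against the own PT sample.

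When all time points after irradiation were tested jointly (edgeR F test), miR-96-5p and miR-182-5p were called in both strains, and miR-183-5p was not. This fit takes the repeated samples of a mouse as independent. The adjusted p in C3H mice was 0.00356 for miR-96-5p, 0.00356 for miR-182-5p and 0.218 for miR-183-5p, in a test that called 15.5% of all miRNA. The C57Bl/6 values were 0.000323, 0.0354 and 0.388, with 25.3% of all miRNA called. In C3H mice the calls were not made by limma-voom (adjusted p = 0.345 for miR-96-5p and 0.201 for miR-182-5p), nor after adding a replicate block for each mouse (adjusted p = 0.407 and 0.214 by limma-voom). In C57Bl/6 mice limma-voom still called miR-96-5p without the replicate block but not with it (adjusted p = 0.0575), and did not call miR-182-5p (adjusted p = 0.102). The call of miR-182-5p was also lost without either of 2 sham mice at M2, number 1013 (adjusted p = 0.0667 by edgeR) and number 1015 (adjusted p = 0.0657), while that of miR-96-5p was made without each of the 16. As a change from the own PT sample, with the mouse as a fixed replicate block (limma-voom), no C3H member was called. The adjusted p by this fit was 0.937 for miR-96-5p and 0.737 for miR-182-5p, and 0.715 for miR-96-5p in C57Bl/6 mice. Of 12 alternatives, 5 called miR-96-5p and 5 called miR-182-5p in C3H mice. In C57Bl/6 mice 9 and 6 did.

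The irradiation effect was not shown to differ between strains for any member. Over the 6 shared time points the F test of the difference gave adjusted p = 0.877 for miR-183-5p, 0.974 for miR-96-5p and 0.532 for miR-182-5p by edgeR, with 4.35% of all miRNA called. The effect on miR-182-5p in C57Bl/6 mice exceeded the C3H effect by 0.72 (SE 0.36) at D2 and 0.65 (SE 0.36) at D5. For miR-183-5p at D5 the difference, as C57Bl/6 minus C3H, was -0.80 (SE 0.39). The other 15 differences lay between -0.39 and 0.90, with SE from 0.25 to 0.61.

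Without irradiation, all 3 members changed over time in both strains. In C3H mice the F test over sham samples against PT gave adjusted p = 1.63e-05 for miR-183-5p, 2.27e-09 for miR-96-5p and 4.19e-10 for miR-182-5p by edgeR, and 46% of all miRNA were called. In C57Bl/6 mice it gave 1.09e-09, 9.67e-12 and 1.44e-12 by edgeR, with 62.9% of all miRNA called. A change over time was thus common in sham mice. Age and repeated bleeding cannot be told apart here, nor can blood from behind the eye and from the heart. Samples after M1 come from codes G1 or G2 only, and no cause of the change was tested.

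For miR-96-5p, sham mice were above their own PT sample by 1.96 ± 1.91 (SD, n = 16) at M4 in C3H, with 14 of 16 mice higher. The C57Bl/6 change was 2.23 ± 1.69 (SD, n = 16) at M3, with 15 of 16 mice higher. In irradiated mice the mean changes at the same times were 0.88 ± 1.26 (SD, n = 17) and 1.49 ± 1.97 (SD, n = 27). For miR-182-5p, 16 of 16 sham C3H mice were higher at M4, by 2.07 ± 1.28 (SD, n = 16), and 16 of 17 irradiated mice, by 1.35 ± 1.01 (SD, n = 17). In sham C57Bl/6 mice miR-182-5p was 1.11 ± 1.28 (SD, n = 16) higher at M3, with 12 of 16 mice higher. In irradiated C3H mice at M3, 14 of 27 were above their PT sample for miR-96-5p and 19 of 27 for miR-182-5p.

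For miR-183-5p, a difference between strains in the change over time was not tested. In sham C57Bl/6 mice it was above the own PT sample in 14 of 16 mice at D5, by 1.12 ± 1.28 (SD, n = 16), and in 13 of 16 at M4, by 1.06 ± 1.23 (SD, n = 16). In sham C3H mice it was lower at D5 in 12 of 16 mice, with a mean change of -0.58 ± 1.02 (SD, n = 16), and higher at M3 in 11 of 16, by 0.44 ± 0.56 (SD, n = 16). It had a mean change of 0.08 ± 1.27 (SD, n = 16) at M4. The fitted C3H changes against the PT mean of all sham mice were 0.70 (SE 0.27) at M2, 0.77 (SE 0.27) at M3 and 0.80 (SE 0.27) at M4. All mice sampled at M4 were coded G2, and sham mice of this code had 10.69 ± 0.62 (SD, n = 16) at PT, against 9.84 ± 0.76 (SD, n = 16) in code G4. In mice coded G3 or G4, which have no samples after M1, the C3H members were not called over time (adjusted p = 0.511, 0.56 and 0.696 by edgeR for miR-183-5p, miR-96-5p and miR-182-5p), nor was miR-96-5p in C57Bl/6 mice (adjusted p = 0.255).

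**Figure D3:**
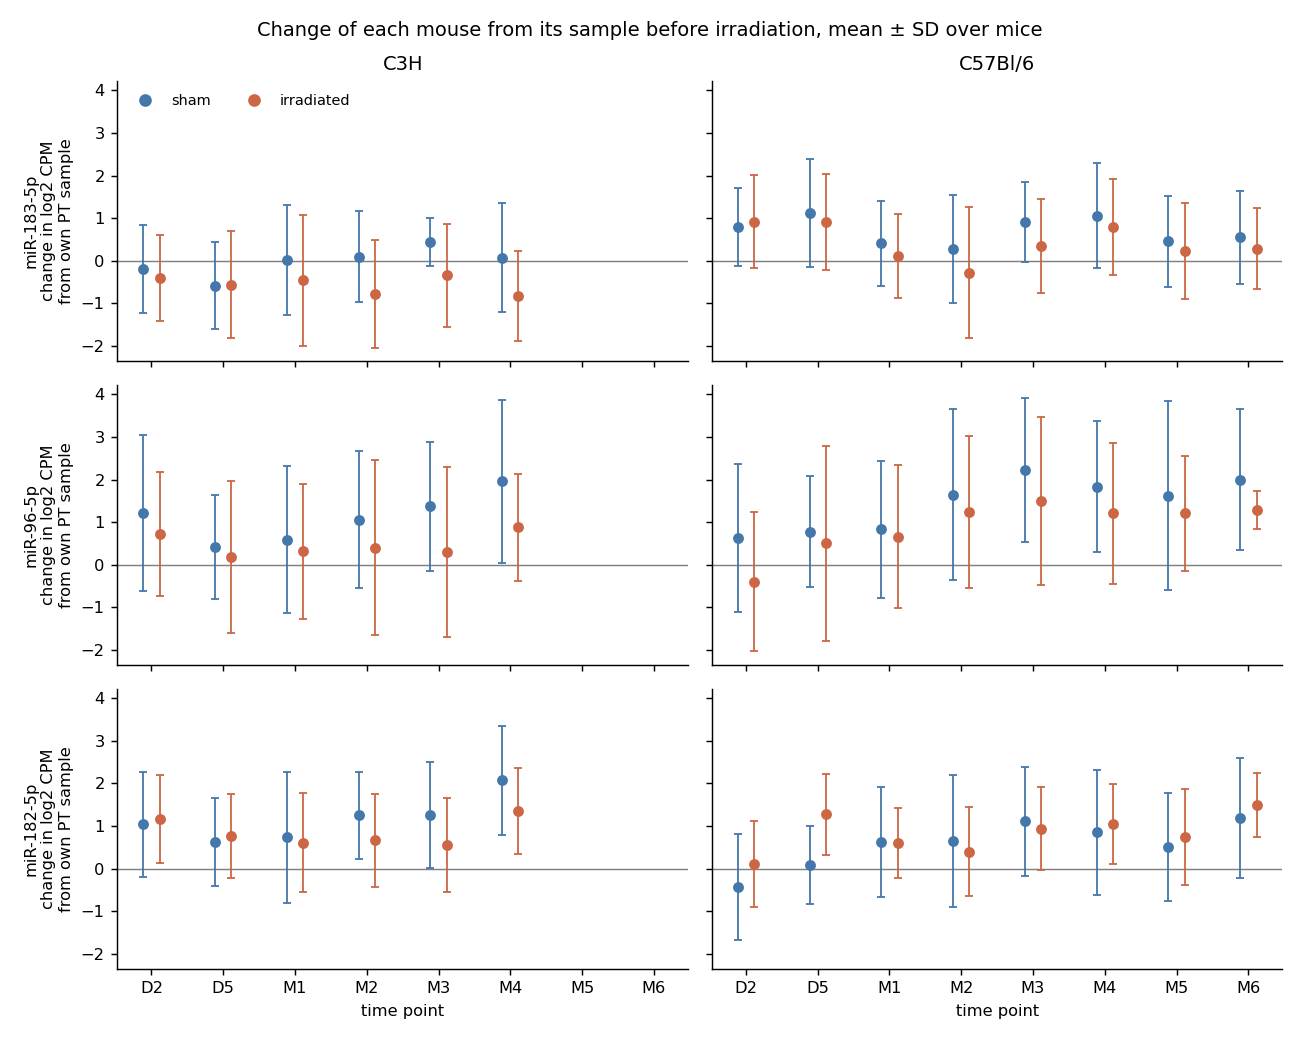
Change in log2 CPM of each mouse from its own sample before irradiation, as mean ± SD over mice, in sham (blue) and irradiated (orange) mice. From M2 on, the means of miR-96-5p and miR-182-5p are above 0 in both strains and treatments. Over all time points shown, those of miR-183-5p in sham mice run from -0.58 to 0.44 in C3H and from 0.27 to 1.12 in C57Bl/6 mice. In irradiated mice they run from -0.82 to -0.34 in C3H and from -0.28 to 0.92 in C57Bl/6 mice.

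Between strains at PT, before any treatment, miR-183-5p and miR-96-5p were lower in C57Bl/6 than in C3H mice over both label codes. The log2 fold changes of C57Bl/6 minus C3H were -0.34 (SE 0.14, adjusted p = 0.0264 by edgeR) for miR-183-5p, -0.54 (SE 0.22, adjusted p = 0.0322) for miR-96-5p and 0.04 (SE 0.13, adjusted p = 0.806) for miR-182-5p, where 50.7% of all miRNA were called. Neither difference was called by limma-voom (-0.184, adjusted p = 0.258, and -0.556, adjusted p = 0.0759). These values differed by label code. For miR-183-5p, mice coded G2 had 11.02 ± 0.86 (SD, n = 48) log2 CPM and those coded G4 9.88 ± 0.76 (SD, n = 48), both of them C3H, while the C57Bl/6 codes G1 and G3 had 10.41 ± 0.70 (SD, n = 48) and 10.01 ± 0.75 (SD, n = 48). The gap between the 2 C3H codes was larger than the gap between strains.

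For miR-182-5p the strain difference was 0.67 (adjusted p = 0.000765 by edgeR) between codes G1 and G2 and -0.44 (adjusted p = 0.0232) between G3 and G4, so that it turned with the code. Its levels were 7.10 ± 0.76 (SD, n = 48) in G1, 6.62 ± 0.76 (SD, n = 48) in G2, 6.69 ± 0.83 (SD, n = 48) in G3 and 7.14 ± 0.79 (SD, n = 48) in G4. For miR-183-5p the difference was -0.53 (adjusted p = 0.00898 by edgeR) between G1 and G2 and 0.11 (adjusted p = 0.68) between G3 and G4. That of miR-96-5p kept its direction, with -0.83 (adjusted p = 0.022 by edgeR) and -0.19 (adjusted p = 0.626). The median total at PT was 1622474 reads in G1, 1274625 in G2, 789666 in G3 and 1729580 in G4.

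**Figure D4:**
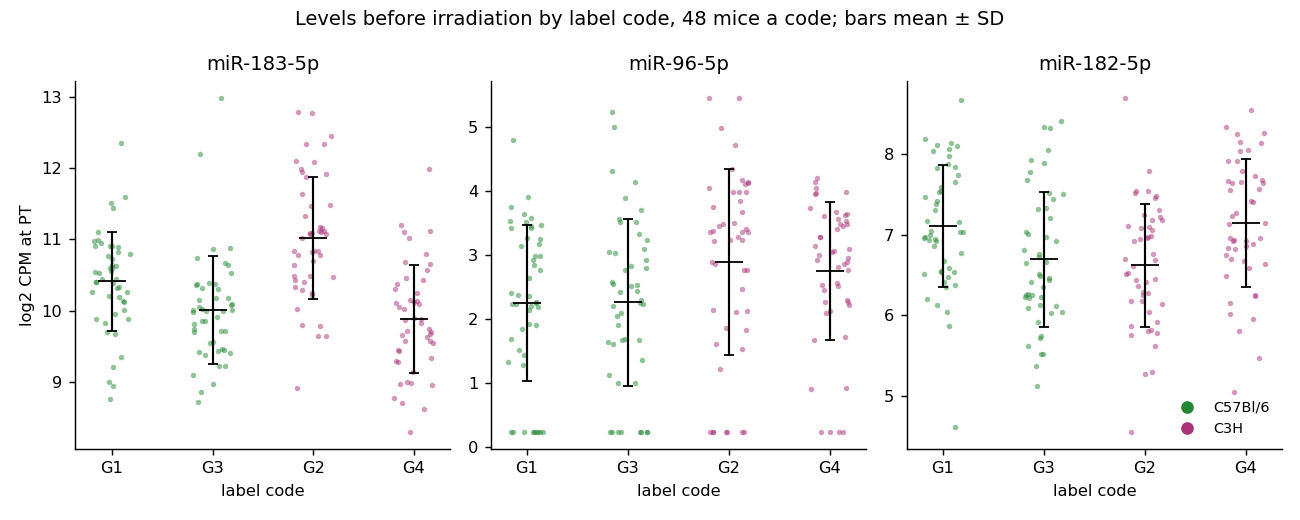
Log2 CPM before irradiation in the 48 mice of each label code, C57Bl/6 in green (G1, G3) and C3H in purple (G2, G4), with mean ± SD. For miR-183-5p the code G2 (11.02) stands above the other 3, and for miR-182-5p the order of the strains turns between the codes.

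Sex was compared at PT within each strain, as female minus male. No member was called, where 14.5% of all miRNA passed in C3H and 14.7% in C57Bl/6 mice. For miR-183-5p the log2 fold change was -0.41 (SE 0.18, adjusted p = 0.118 by edgeR) in C3H and 0.42 (SE 0.18, adjusted p = 0.109) in C57Bl/6 mice. For miR-182-5p it was 0.25 (SE 0.17, adjusted p = 0.369) and 0.38 (SE 0.18, adjusted p = 0.136), and for miR-96-5p -0.20 (SE 0.30, adjusted p = 0.716) and 0.25 (SE 0.32, adjusted p = 0.663), also by edgeR. The irradiation effect was not shown to differ between sexes in C3H (adjusted p = 1 for each member, 0.621% of all miRNA called) or in C57Bl/6 mice (adjusted p = 0.376 for miR-183-5p, 0.484 for miR-96-5p and 0.957 for miR-182-5p by edgeR, 6.63% called).

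The study related early plasma miRNA to survival, which the labels do not give. It placed miR-96-5p in its C57Bl/6 signature of survival and among the miRNA with the largest part in its survival models. As the nearest labelled measure, irradiated mice with and without a later sample (M4 in C3H coded G2, M5 in C57Bl/6 coded G1) were compared at D2, D5 and M1. In 18 two-sided permutation tests, exact where a side had fewer than 10 mice, 0 had an unadjusted p under 0.05 and the smallest adjusted p was 0.5275. The differences in mean log2 CPM ran from -0.46 for miR-96-5p at M1 in C57Bl/6 mice (21 with and 15 without, permutation p = 0.264) to 0.89 for the same miRNA at D2 (9 with and 7 without, exact p = 0.197). With library totals without TMM factors, miR-183-5p at D2 in C57Bl/6 mice had -0.71 (exact permutation p = 0.017, adjusted 0.298). In that setting miR-182-5p had -0.76 there (exact permutation p = 0.048, adjusted 0.298). A mouse without a later sample may have died, been taken for tissue or failed a quality filter, which the labels do not distinguish.

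The levels of the members were compared from mouse to mouse before irradiation. Of 6 pairwise correlations over 96 mice each, 4 passed after Benjamini-Hochberg adjustment of the permutation p. In C3H mice Pearson's r was 0.435 (rho 0.459, permutation p = 2e-05, adjusted 6e-05) for miR-183-5p with miR-96-5p, 0.348 (rho 0.322, permutation p = 0.00048, adjusted 0.00072) for miR-183-5p with miR-182-5p and 0.464 (rho 0.477, permutation p = 1e-05, the smallest that the resampling can give, adjusted 6e-05) for miR-96-5p with miR-182-5p. Without the 2 samples farthest from the median, r was 0.403, 0.311 and 0.441. Within the codes G2 and G4 the value for miR-183-5p with miR-182-5p was higher than the pooled one, at 0.738 and 0.650.

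In C57Bl/6 mice miR-183-5p and miR-182-5p were correlated (r = 0.410, rho 0.439, permutation p = 3e-05, adjusted 6e-05, and 0.433 without the 2 farthest samples), with 0.279 in G1 and 0.441 in G3. The pairs with miR-96-5p did not pass, with r = 0.195 for miR-183-5p (rho 0.190, permutation p = 0.0567, adjusted 0.068, 0.180 without the 2 farthest samples, 0.0266 in G1 and 0.357 in G3). With miR-182-5p it was r = 0.128 (rho 0.0992, permutation p = 0.213, adjusted 0.213, 0.0445 without the 2 farthest samples, 0.215 in G1 and 0.0634 in G3). Many C57Bl/6 samples had few or no reads of miR-96-5p at PT, with 12 of 64 and 5 of 32 at 0 in mice of the irradiated and sham groups, against 9 of 64 and 2 of 32 in C3H mice.

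The miRNA whose levels varied most like the members were looked up over all 899 samples after removing the 32 group means. These values are descriptions, since the samples share mice, sequencing depth and scaling. For miR-183-5p they were miR-148a-3p (r = 0.867), miR-200c-3p (0.819), let-7c-5p (0.674), let-7b-5p (0.660) and miR-30a-3p (0.638). For miR-182-5p they were miR-429-3p (0.689), miR-200b-3p (0.687), miR-141-3p (0.655), miR-205-5p (0.641) and miR-200a-3p (0.639). For miR-96-5p they were miR-200c-3p (0.50), miR-182-5p (0.453), miR-205-5p (0.450), miR-200b-3p (0.442) and miR-183-5p (0.434). Of the 5 places, 1 for miR-183-5p, 3 for miR-96-5p and 5 for miR-182-5p went to the epithelial list, which holds the miR-200 family, known to keep epithelial cells in their state, and miR-205-5p. The partner closest to miR-183-5p within the cluster was miR-182-5p (r = 0.622, rank 7 of 482), ahead of miR-96-5p (r = 0.434, rank 22).

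Lists of miRNA of tissues that plasma could hold were read beside the members. Over the 7 epithelial miRNA the median r was 0.490 with miR-183-5p, 0.430 with miR-96-5p and 0.641 with miR-182-5p, where the median over all tested miRNA was -0.0511, 0.0128 and -0.0211. The exception in that list was miR-203-3p, a skin miRNA, with -0.0580, 0.0291 and 0.143. For the 4 red blood cell miRNA (among them miR-451a) the median was -0.261, -0.166 and -0.208, and for the 6 leukocyte miRNA (among them miR-150-5p and miR-223-3p) it was -0.210, -0.193 and -0.271. The 3 tested miRNA of the neural and retinal list had medians of 0.0468, 0.0162 and -0.0158, while miR-124-3p, the neuronal marker of that list, did not pass the filter. For miR-375-3p, miR-7a-5p and miR-7b-5p of the endocrine and sensory list the medians were -0.134, -0.0747 and -0.00462. In CPM, a share that one miRNA gains is lost by the others, and the part of this in the negative values was not tested.

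**Figure D5:**
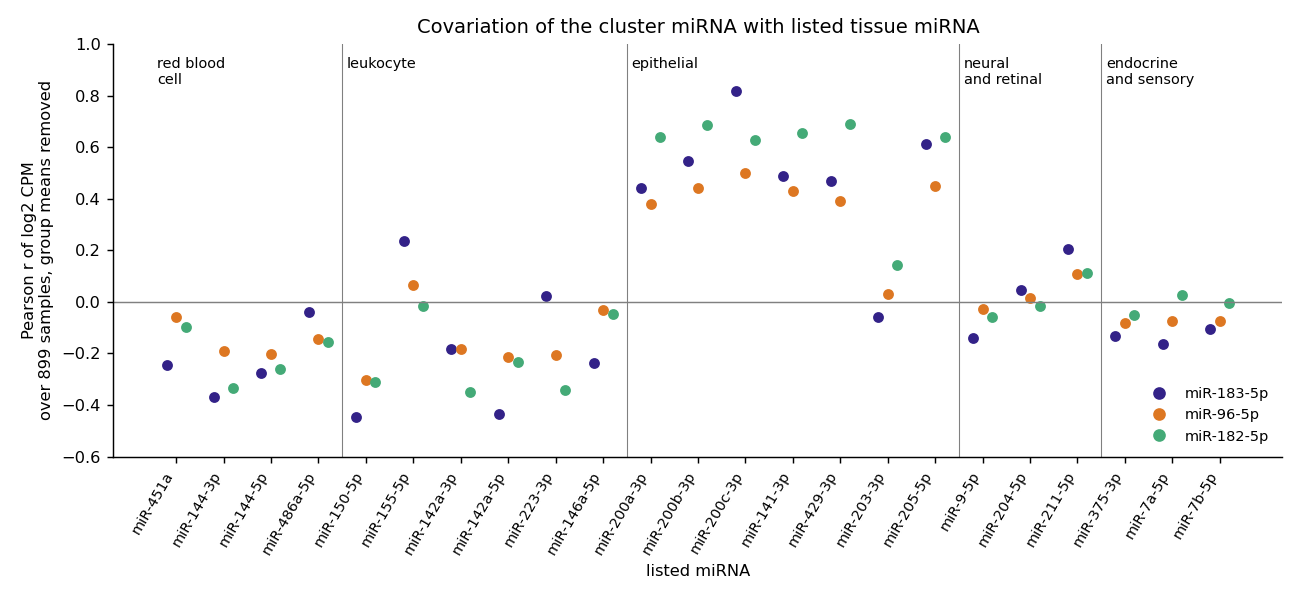
Pearson r of log2 CPM between each member and each listed miRNA over 899 samples, with the means of the 32 groups removed. Epithelial miRNA other than miR-203-3p lie between 0.38 and 0.82, most red blood cell and leukocyte miRNA lie under 0, and the neural, retinal and endocrine miRNA lie between -0.16 and 0.20.

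The same lists were tested in the comparisons above. Over time in sham mice, 7 of 7 epithelial miRNA passed in either strain, as did the 3 members, where 46% and 62.9% of all miRNA passed. The summed level of the epithelial miRNA had a median of 15960 CPM in sham C3H mice at PT (7332 to 35620) and 41090 CPM at M4 (24270 to 121700). In sham C57Bl/6 mice it was 22540 CPM at PT (14250 to 34080) and 41020 CPM at M6 (16400 to 64270). The PT groups hold 32 mice of both label codes, whereas those at M4 and M6 hold 16 mice of G2 or G1 alone. The summed level was not compared within a code or within mice. The part of the epithelial miRNA in the rise of the members was not tested. Red blood cell miRNA were called over time in 4 of 4 cases in both strains, leukocyte miRNA in 4 of 6 and 6 of 6, neural and retinal miRNA in 2 of 3 and 2 of 3, and endocrine and sensory miRNA in 0 of 3 and 2 of 3, against the same shares.

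After irradiation the F test over all time points called 1 of 7 epithelial miRNA in C3H and 4 of 7 in C57Bl/6 mice, against 15.5% and 25.3% of all miRNA, so that the C3H count was near the background. At D5 in C57Bl/6 mice, where miR-182-5p had 0.67, the epithelial list had a median log2 fold change of 0.35 (all miRNA -0.0029), with 2 called higher and 1 lower (14.1% of all miRNA called). At D2 (6.63%) its median was 0.32 (all miRNA -0.06) with 0 called. From M1 to M4 in C3H mice its median was -0.25, -0.18, -0.23 and -0.28, with 0 called, on the same side as the members. The medians of all miRNA at these times were also under 0, at -0.05, -0.07, -0.01 and -0.06. Within the list miR-203-3p was above 0 at M2 (0.38) and M3 (0.23), while miR-200c-3p had -0.71 at M1 and -1.11 at M4. Leukocyte miRNA fell at D2 in C3H mice, where 5 of 6 were called lower (median -1.05, 4.97% of all miRNA called), and at D5 in C57Bl/6 mice, where 4 of 6 were called lower (median -1.11). The same F test called 5 of 6 leukocyte miRNA in each strain, 2 of 4 and 1 of 4 red blood cell miRNA, 0 of 3 and 2 of 3 neural and retinal miRNA and 2 of 3 and 2 of 3 endocrine and sensory miRNA. At PT, 4 of 4 red blood cell miRNA were lower in C57Bl/6 than in C3H mice (median -0.67), 3 of 6 leukocyte miRNA were lower, and of the 7 epithelial miRNA 3 were higher and 1 lower, where 50.7% of all miRNA were called. The part of these lists in the members' differences was not tested.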

How the data were processed

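Plasma was passed by the submitters through a check for hemolysis, miRNA was extracted from a fixed plasma volume and libraries were made with the QIAseq miRNA kit. The values are raw read counts per mature miRNA that the authors deposited as 1 table for all 899 samples, aligned with the BaseSpace small RNA application (genome build mm10 in the submitters' processing notes). The miRBase release and the use of molecular identifiers are not given in the sources used here, so floors cover counting error only.

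Samples were grouped by strain, treatment and time point from their labels (32 groups). Counts were normalized with TMM factors, filtered with filterByExpr (483 of 1915 miRNA kept) and tested with edgeR 4.0.16 in R 4.3.3 (quasi-likelihood, all groups in 1 fit, Benjamini-Hochberg over all miRNA of a contrast, threshold 0.05). Levels are log2 CPM with a prior count of 2. Correlations and later sampling used permutation tests with 100000 resamples, or exact tests where a side had fewer than 10 mice. Sequences and loci came from RefSeq and the GRCm38 annotation. The fits were tested on simulated counts with known changes, drawn independently for each sample. These counts held no likeness between samples of a mouse and no differences between label codes, so the simulation does not cover either.

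The members and lists were chosen with earlier results of these data known. Named miRNA are the members, their 3p strands, the 5 miRNA most correlated with each member, and the lists for red blood cells, leukocytes, epithelia, neural and retinal tissue, and endocrine and sensory cells. Alternatives were limma-voom and quantile normalized log2 RPM with limma (limma 3.58.1), DESeq2 1.42.0 or its size factors, no filter, sex and label code as terms, only the groups compared, single codes or sexes, leaving out mice without a PT sample, and the mouse as a replicate block. Samples of at least 1000000 reads, leaving out single sham samples, and some code and sex splits were added after seeing the data. Samples of the same mouse are paired by the mouse number in the labels: over 99 miRNA their deviations from the group means correlated at 0.082 on average (1962 pairs), against -0.000166 between different mice.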

Additional observations from a re-analysis of the deposited data

How the results depend on the processing

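The irradiation effect over all time points lost its call in C3H mice, for miR-96-5p and miR-182-5p in that order, with adjusted p = 0.345 and 0.201 in limma-voom, 0.801 and 0.634 in limma on quantile normalized log2 RPM, 0.407 and 0.214 with the mouse as a replicate block, 0.937 and 0.737 for the change from the own PT sample with the mouse as a fixed replicate block, 0.499 and 0.357 in females, 0.0932 and 0.293 in males, and 0.0506 and 0.0893 in samples of at least 1000000 reads (edgeR for the last 3). In C57Bl/6 mice miR-96-5p lost it with the replicate block (adjusted p = 0.0575 in limma-voom), against the own PT sample with that block (0.715) and in males (0.665 in edgeR). For miR-182-5p in this strain the adjusted p was 0.102 in limma-voom and 0.0847 with the replicate block, and in edgeR 0.271 in codes G1 or G2, 0.604 in females, 0.227 in males and 0.255 in samples of at least 1000000 reads. It ran from 0.016 to 0.0667 in edgeR without single sham mice at M2.

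The number of member tests called after irradiation in C57Bl/6 mice was 1. It was 3 with DESeq2, 2 with DESeq2 size factors, with quantile normalization, with only the 2 groups compared, in codes G1 or G2 and in codes G3 or G4, and 0 with limma-voom, with the replicate block, against the own PT sample, in males and without the mice that have no PT sample.

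For the change over time in sham mice, codes G3 or G4 alone gave adjusted p = 0.511 for miR-183-5p, 0.56 for miR-96-5p and 0.696 for miR-182-5p in C3H mice, and 0.255 for miR-96-5p in C57Bl/6 mice, by edgeR with D2, D5 and M1 only.

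The strain difference of miR-183-5p at PT was no longer called at -0.184 in limma-voom, -0.186 with the replicate block, -0.259 with DESeq2 and -0.259 with its size factors, -0.272 with quantile normalization, -0.274 without a filter and -0.291 with sex and code as terms, and it reversed to 0.108 in codes G3 or G4, 0.0891 in females and 0.0459 in samples of at least 1000000 reads. That of miR-96-5p was not called at -0.556 in limma-voom, -0.562 with the replicate block, -0.482 with DESeq2 size factors, -0.481 without a filter, -0.303 in females, -0.192 in codes G3 or G4 and -0.398 in samples of at least 1000000 reads. That of miR-182-5p was 0.668 in codes G1 or G2, and reversed to -0.444 in codes G3 or G4 and -0.0553 in males.

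The sex difference of miR-96-5p in C57Bl/6 mice reversed to -0.124 in limma-voom. Irradiation effects at single time points reversed as follows, none of them the called one. The C3H effects of miR-182-5p became 0.304 at D2 and -0.0475 at D5 against the own PT sample, 0.0177 at D2 with the replicate block, 0.0922 at D2 with quantile normalization, 0.000489 at D2 with DESeq2 and 6.89e-05 with its size factors, 0.0544 at D2 in males, and at D5 -0.204 in females, -0.268 in codes G3 or G4 and -0.0239 with only the 2 groups compared. Those of miR-183-5p in C3H mice became -0.0623 at D2 and -0.123 at D5 against the own PT sample, -0.137 at D2 in males, -0.102 at D5 and 0.193 at M1 in codes G3 or G4 and 0.0778 at M1 in females. For miR-96-5p in C3H mice the D5 effect became -0.27 in limma-voom, -0.279 with the replicate block, -0.561 against the own PT sample, -0.321 with quantile normalization, -0.00623 with sex and code as terms, -0.259 in codes G3 or G4, -0.588 in males and -0.098 in samples of at least 1000000 reads, and the M1 effect 0.0324 in codes G3 or G4.

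In C57Bl/6 mice the effect of miR-96-5p became -0.331 at D5 in limma-voom, -0.305 with the replicate block and -0.636 with quantile normalization, 0.105 at M1 in males and 0.207 at M4 in females. For miR-183-5p it became 0.518 at D5 and 0.042 at M1 in codes G1 or G2, 0.63 at D5 in males and 0.481 at M4 in females. For miR-182-5p it became 0.203 at M4, -0.0483 at M5 and 0.161 at M6 in females, 0.116 at M4 and 0.405 at M6 against the own PT sample, and at M6 0.168 in limma-voom, 0.194 with the replicate block, 0.261 with quantile normalization, 0.00607 with DESeq2, 0.00619 with its size factors and 0.00718 in samples of at least 1000000 reads. At PT, miR-182-5p became 0.335 in C3H codes G1 or G2 and 0.36 in C57Bl/6 males, and miR-96-5p in C57Bl/6 mice 0.00686 in codes G1 or G2 and 0.229 in males.

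With library totals without TMM factors, later sampling reversed to 0.13 for miR-183-5p at D2 and 0.00663 for miR-96-5p at D5 in C3H mice, and to 0.0476 for miR-96-5p at D5 and -0.067 for miR-182-5p at M1 in C57Bl/6 mice. The cause was not tested for any of these changes. The median of 12 reads limits miR-96-5p, for which a count of 0 allows up to 14.5 CPM.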
